A study of Sus scrofa with 6 samples.

Results

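FOS, JUN, EGR1, ATF3, CEBPB, CEBPD and DUSP1 are genes whose transcripts cells make within minutes to hours of serum, stress, cytokines or mechanical load. Their probe sets were taken as all non-control probe sets to which the platform annotation gives exactly 1 gene symbol, that of 1 of these 7 genes. The rule found 11 probe sets, of 23999 non-control probe sets on the array and of 10069 with 1 symbol, and each of the 7 genes had at least 1. FOS, JUN, ATF3, CEBPB and CEBPD encode transcription factors of the leucine zipper class, EGR1 encodes a zinc finger factor and DUSP1 a phosphatase. No measured value was used to choose them, but they were chosen with earlier results of these arrays known.

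The samples were aortic valve leaflets excised from adult female pigs, with the endothelium taken off by collagenase in every sample, and kept overnight in medium with serum. Leaflets were then held for 24 h at 1 Hz in a pressure bioreactor, also in medium with serum. The hypertensive group had cyclic pressure of 0 to 120 mmHg and the normotensive group 0 to 80 mmHg, with 3 arrays each. Each sample is labelled a biological replicate, but whether different animals gave them is not stated. A p-value therefore covers only the spread among these samples, and every SE below is from 3 arrays a group. No array of leaflets without pressure, and none from an earlier time, was analysed here, so the comparison asks which of these genes differ at the end of 24 h and not whether any had been raised before.

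Immediate-early genes need no new protein to be transcribed. FOS and JUN proteins pair as the factor AP-1, and EGR1 binds GC-rich sites near many growth and wound response genes. ATF3 is a stress-induced relative of the CREB family, and CEBPB and CEBPD are C/EBP factors of acute phase and inflammatory genes. DUSP1 removes phosphate from MAP kinases, the enzymes upstream of most of these genes, and so limits their activity. The transcripts are short-lived, and that of FOS in particular is known to decline soon after a stimulus in cultured cells.

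The arrays of the hypertensive group were less alike than those of the normotensive group. The fit used 14399 probe sets whose mean log2 signal over the arrays was at or above the 40th percentile, called kept below. Across them, arrays correlated at 0.847 to 0.926 within the hypertensive group and at 0.952 to 0.978 within the normotensive group. Hypertensive replicate 2 correlated at 0.946 to 0.957 with the normotensive arrays, replicate 3 at 0.885 to 0.904 and replicate 1 at 0.810 to 0.823. Values below are therefore given array by array, as signal on a linear scale. A signal is not compared between probe sets, since each binds with its own strength.

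At the end of 24 h, CEBPB and DUSP1 had more signal on all 3 hypertensive arrays than on any normotensive array. CEBPB was at 2.36 times and DUSP1 at 2.44 times the normotensive level. ATF3 was at 2.34 times, but 1 hypertensive array made most of that difference. FOS, JUN, EGR1 and CEBPD had overlapping groups, with folds of 0.776, 0.809, 0.921 and 0.975. None of the 7 passed an adjusted p of 0.05 in the limma fit over all kept probe sets, and neither did any other probe set (0.0% called), so no member is said to have risen or fallen.

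Counted over the brightest probe set of each gene, 3 of the 7 had a higher and 4 a lower mean at hypertensive pressure, and the median of their log2 differences, hypertensive minus normotensive, was -0.04. Among all 5271 genes with a kept probe set of their own, 45.0% had a higher mean and the median was -0.07. The hypertensive arrays lay wholly above the normotensive arrays in 2 of the 7 genes and wholly below in 0. Among the 5271 genes 9.28% lay wholly above and 12.6% wholly below, and over all kept probe sets 10.4% and 12.0%. At an unadjusted p under 0.05, 2 of the 7 were higher, against 7.39% of all kept probe sets, and 0 were lower, against 9.53%. Those 2 were again CEBPB and DUSP1.

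**Figure D1:**
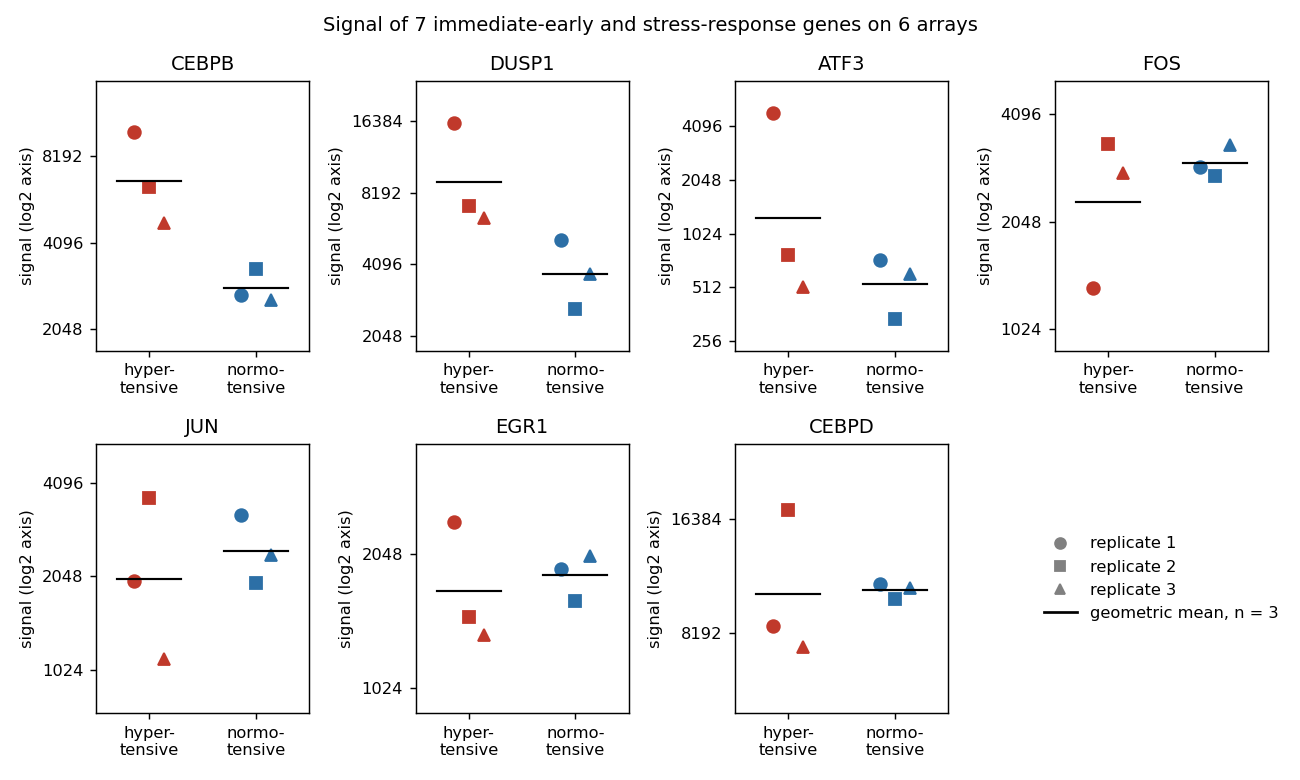
Signal of the brightest probe set of each of the 7 genes, on log2 axes that differ by panel, with hypertensive arrays in red and normotensive arrays in blue; symbols mark the replicate number and lines the geometric mean of 3 arrays. The groups are apart for CEBPB and DUSP1 and overlap for the other 5 genes.

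CEBPB encodes a C/EBP factor that is itself induced by interleukins and acts on cytokine and acute phase genes. Its signal on hypertensive replicates 1, 2 and 3 was 9914, 6385 and 4789, against 2688, 3302 and 2590 on the normotensive arrays. The lowest hypertensive array was at 1.45 times the highest normotensive one, and the 3 normotensive arrays lay close together. The log2 difference was 1.24 (SE 0.28, 95% interval 0.59 to 1.89, adjusted p = 0.222 by limma). With any 1 array left out, the difference stayed between 0.96 and 1.48. Of all kept probe sets, 3.34% had a larger difference in the group means.

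CEBPB was also high on the array most like the normotensive ones. On hypertensive replicate 2 it stood at 2.25 times the normotensive mean, and 2.02% of kept probe sets had a larger difference on that array. On replicate 1 it stood at 3.49 times, with 4.40% of probe sets above it. The smallest value was that of replicate 3, 1.68 times, which 14.6% of probe sets exceeded.

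CEBPD, the other C/EBP factor, did not share this pattern. Its brightest probe set read 8528, 17280 and 7529 on hypertensive replicates 1, 2 and 3, against 11043, 10089 and 10742 on the normotensive arrays. Replicates 1 and 3 lay below all normotensive arrays and replicate 2 lay above them, so the mean hides values on both sides. The log2 difference was -0.04 (SE 0.29, 95% interval -0.71 to 0.64, adjusted p = 0.957 by limma), which leaves folds of 0.610 to 1.56 within the interval. With weighted arrays it was -0.43, with an adjusted p of 0.0391 by limma. In that fit 5639 of the 14399 probe sets passed. The weights leaned on hypertensive replicate 3 and normotensive replicate 1, the lowest hypertensive and highest normotensive arrays for this probe set.

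A further CEBPD probe set, Ssc.10025.2.S1_at, gave a log2 difference of 0.16 (SE 0.31, adjusted p = 0.806 by limma). Replicate 2 was again the highest hypertensive array there, at 358 against 215 and 277 for replicates 1 and 3, with 243, 204 and 309 on the normotensive arrays. The probe sets thus had group differences of opposite sign, both small beside their errors.

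DUSP1 is the phosphatase that cells make in response to the MAP kinases it then switches off. It read 16137, 7197 and 6432 on hypertensive replicates 1, 2 and 3, against 5182, 2661 and 3732 on the normotensive arrays. The groups did not overlap, although the lowest hypertensive array was only at 1.24 times the highest normotensive one. Its log2 difference was 1.29 (SE 0.39, 95% interval 0.40 to 2.17, adjusted p = 0.253 by limma). It ranged from 0.87 without hypertensive replicate 1 to 1.53 without hypertensive replicate 3 or normotensive replicate 1, and it was 0.62 with weighted arrays. Against the normotensive mean, DUSP1 stood at 4.34, 1.94 and 1.73 times on hypertensive replicates 1, 2 and 3.

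Whether CEBPB and DUSP1 passed the threshold changed with how the arrays were used. Without hypertensive replicate 2, the limma adjusted p was 0.0235 for CEBPB and 0.0383 for DUSP1, while 3505 of the 14399 probe sets then passed. Their own differences changed little, to 1.28 and 1.45. In a limma fit that kept all 6 arrays but weighted them, 5639 probe sets passed, among them CEBPB with a log2 difference of 0.94 (adjusted p = 0.0031). DUSP1 did not pass in that fit, where its difference was 0.62 (adjusted p = 0.0924). That fit leaned on hypertensive replicate 3 and normotensive replicate 1, with weights of 2.38 and 6.96.

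ATF3, which can repress as well as activate its targets, had one extreme value. It read 4875, 776 and 513 on hypertensive replicates 1, 2 and 3, against 733, 340 and 608 on the normotensive arrays. Replicate 1 was at 9.15 times the normotensive mean, where 0.854% of kept probe sets had a larger difference, while replicate 3 was at 0.963 times and inside the normotensive range. For ATF3 the log2 difference was 1.23 (SE 0.77, 95% interval -0.54 to 3.00, adjusted p = 0.411 by limma). It was 0.24 without hypertensive replicate 1 and 1.87 without hypertensive replicate 3, folds of 1.18 and 3.65. With weighted arrays it was 0.0046, close to no difference.

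FOS was low on a single hypertensive array. Its signal was 1334, 3388 and 2797 on hypertensive replicates 1, 2 and 3, against 2916, 2748 and 3372 on the normotensive arrays. Replicate 1, where ATF3, CEBPB and DUSP1 were at their highest, was at 0.445 times the normotensive mean for FOS. Replicate 3 lay within the normotensive range and replicate 2 just above it. The log2 difference was -0.37 (SE 0.35, 95% interval -1.17 to 0.44, adjusted p = 0.582 by limma), and it was 0.04 without replicate 1.

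JUN, the partner of FOS in AP-1, did not follow FOS from array to array. It read 1975, 3644 and 1111 on hypertensive replicates 1, 2 and 3, against 3223, 1950 and 2399 on the normotensive arrays. Here replicate 3 was the low array, at 0.450 times the normotensive mean, and replicate 2 the high one, at 1.48 times. The log2 difference was -0.31 (SE 0.43, 95% interval -1.28 to 0.67, adjusted p = 0.710 by limma). It was 0.12 without hypertensive replicate 3 and -1.21, with an adjusted p of 0.00663 by limma, in a fit that weighted the arrays. In that fit 5639 of the 14399 probe sets passed. The weights leaned on hypertensive replicate 3 and normotensive replicate 1, the lowest hypertensive and highest normotensive arrays for JUN.

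EGR1 had 2 probe sets above the filter. The brighter, Ssc.19629.2.S1_s_at, read 2419, 1483 and 1347 on hypertensive replicates 1, 2 and 3, against 1894, 1604 and 2033 on the normotensive arrays. Its log2 difference was -0.12 (SE 0.29, 95% interval -0.78 to 0.55, adjusted p = 0.845 by limma). Replicate 1 lay above and replicates 2 and 3 below all normotensive arrays. By the array maker's naming, a probe set ending in _s_at can bind more than 1 transcript.

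The other EGR1 probe set, Ssc.19629.1.A1_at, read 1427, 1447 and 705 on hypertensive replicates 1, 2 and 3, against 1783, 1109 and 2031 on the normotensive arrays. This one differed by -0.49 on the log2 scale (SE 0.38, 95% interval -1.35 to 0.37, adjusted p = 0.491 by limma). With weighted arrays it was -1.12, with an adjusted p of 0.00666 by limma. That fit leaned on hypertensive replicate 3, the lowest array here, and 5639 of all 14399 kept probe sets passed in it. Both probe sets had their lowest hypertensive value on replicate 3, and they disagreed on replicate 1, at 1.32 and 0.898 times their normotensive means. The intervals allow an EGR1 level up to 1.46 times normotensive by the first probe set and 1.30 times by the second.

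**Figure D2:**
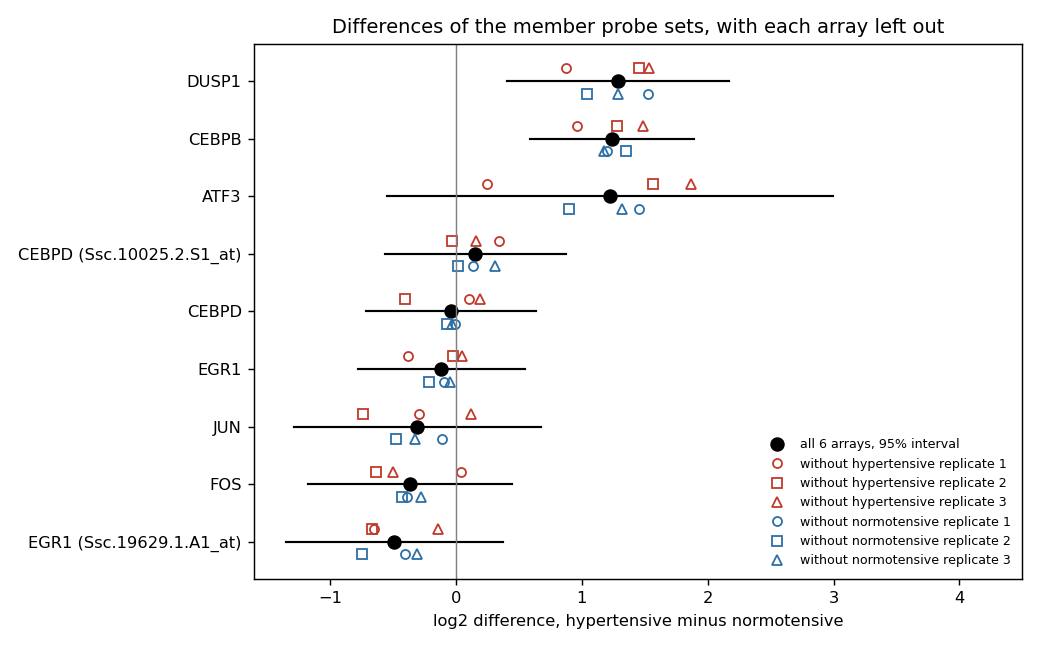
Log2 difference, hypertensive minus normotensive, for the 9 member probe sets kept by the filter, with the 95% interval of the limma fit (black) and the difference after leaving out each hypertensive (red) or normotensive (blue) array. CEBPB stays between 0.96 and 1.48 and DUSP1 between 0.87 and 1.53, while ATF3 runs from 0.24 to 1.87.

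The 7 genes differed more between hypertensive arrays than between normotensive arrays. The SD of log2 signal was larger in the hypertensive group for 7 of 7 genes, with medians of 0.71 and 0.19 in the hypertensive and normotensive groups. For all kept probe sets the medians were 0.49 and 0.23, and the hypertensive SD was the larger in 77.5% of them. The highest hypertensive array was at 9.49 times the lowest for ATF3, 3.28 times for JUN and 2.51 times for DUSP1. Corresponding spans on normotensive arrays were 2.15, 1.65 and 1.95 times. CEBPD showed the tightest normotensive values, spanning 1.09 times, against 2.30 times on the hypertensive arrays.

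No hypertensive array was high for all 7 genes. Replicate 1 held the highest hypertensive signal of CEBPB, DUSP1, ATF3 and EGR1 and the lowest of FOS. Replicate 2 was highest for FOS, JUN and CEBPD. Replicate 3 was highest for 0 genes and lowest for 6. Medians over the 7 genes, as log2 signal minus the normotensive mean, were 0.40, 0.56 and -0.10 on replicates 1, 2 and 3.

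**Figure D3:**
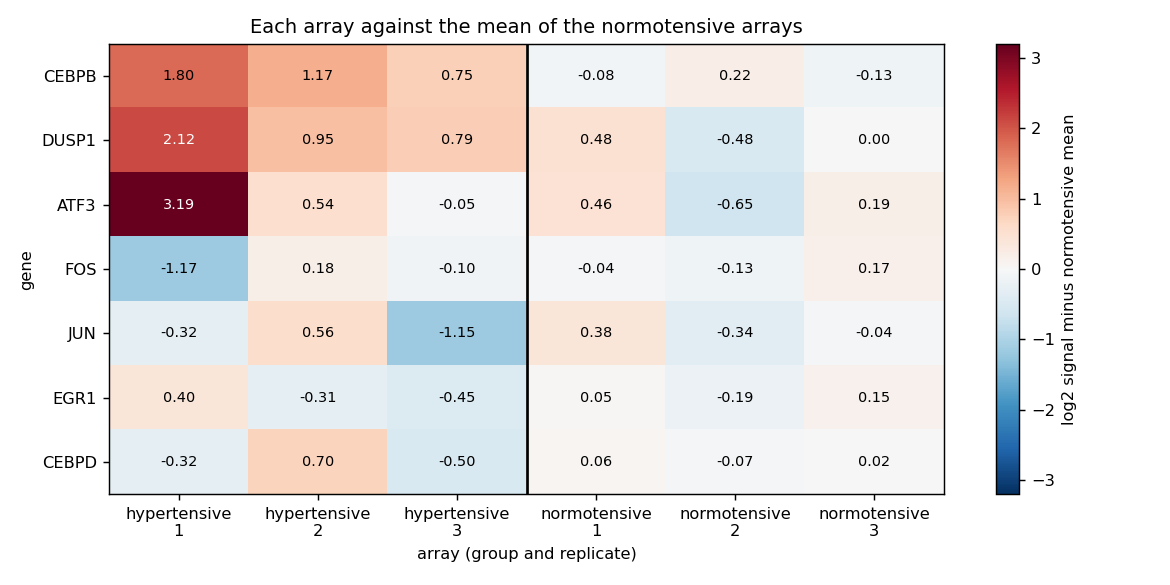
Log2 signal of each gene on each array minus its normotensive mean, with hypertensive arrays left of the line and normotensive arrays right of it; red is higher and blue lower. Hypertensive replicate 1 holds both the highest value, 3.19 for ATF3, and the lowest, -1.17 for FOS.

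Likeness between genes was measured as the root mean square difference over the 6 arrays of log2 signal, each gene centred on its own mean, so that a smaller value is a closer pattern. Among pairs of the 7, JUN and CEBPD were closest at 0.30, followed by CEBPB and DUSP1 at 0.40. FOS and ATF3 were farthest apart at 1.63, and FOS and JUN stood at 0.61. Distances grow with the spread of a gene, and ATF3 had the largest, so pairs with ATF3 tend to stand farther apart. The patterns of CEBPB and DUSP1 were nearer to some genes outside the group than to each other. The nearest genes below were picked by this measure on these same arrays. Their group differences thus largely follow from that choice and are no independent evidence.

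Of 5270 other genes, those nearest to DUSP1 were PPP1R15A at 0.11, SLC25A37 at 0.16 and TRAF3IP2 at 0.22. PPP1R15A directs a phosphatase to the translation factor eIF2 alpha, SLC25A37 carries iron into mitochondria and TRAF3IP2 is an adaptor of interleukin-17 receptors. PPP1R15A read 331, 135 and 152 on hypertensive replicates 1, 2 and 3, against 110, 52.3 and 72.5 on the normotensive arrays, groups that did not overlap (log2 difference 1.34, SE 0.45, limma adjusted p = 0.265).

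Nearest to CEBPB were ABCA1 at 0.13, PIM3 at 0.14 and ZNF7 at 0.15. ABCA1 exports cholesterol and PIM3 is a serine/threonine kinase of cell survival. PIM3 read 2042, 1050 and 948 on hypertensive replicates 1, 2 and 3, against 511, 540 and 527 on the normotensive arrays (log2 difference 1.27, SE 0.34, limma adjusted p = 0.237). These groups did not overlap either, but a gene picked for likeness to CEBPB would tend to separate them.

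Nearest to ATF3 were PTGS2, the inducible cyclooxygenase, at 0.33, ZFX at 0.44 and SLC25A30 at 0.49. The measure grows with the spread of a gene, which was largest for ATF3, so these distances are not comparable with those of the other members. PTGS2 read 15802, 3240 and 2465 on hypertensive replicates 1, 2 and 3, against 1918, 893 and 1885 on the normotensive arrays (log2 difference 1.76, SE 0.66, limma adjusted p = 0.274). Unlike ATF3, PTGS2 lay above all normotensive arrays on replicate 3 as well.

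Genes nearest to FOS were DSTN, FBXO3 and MGAT5, at 0.08 to 0.09. EPAS1, RASSF1 and CLK2 were nearest to JUN, at 0.13 to 0.18, and MSX1, IRF2BP1 and PGM3 to EGR1, at 0.09 to 0.11. For CEBPD the nearest were ZNF146, HMBOX1 and PRPF18, at 0.08 to 0.10. Adjusted p for these 12 genes lay between 0.541 and 0.998 by limma.

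Most of the other immediate-early genes kept by the filter had higher means at hypertensive pressure, by less than CEBPB and DUSP1. Of 26 symbols listed, 16 had a probe set with that symbol alone. Of the 14 kept, 12 had higher and 2 lower means in the hypertensive group, where 45.0% of all kept genes had a higher mean. Among the 14, 0 passed, and the median log2 difference was 0.29. The groups did not overlap in 1 of the 14, higher, against 9.28% of all kept genes. That gene was KLF4, a zinc finger factor, which read 11382, 7970 and 10010 on hypertensive replicates 1, 2 and 3, against 5968, 2671 and 6947 on the normotensive arrays (log2 difference 1.01, SE 0.35, limma adjusted p = 0.269).

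NR4A2, an orphan nuclear receptor, stood at 1.80 times the normotensive level, MYC at 1.73 times and IER3 at 1.55 times, each with overlapping groups (limma adjusted p between 0.301 and 0.327). List medians by array, relative to the normotensive mean, were 0.88 on hypertensive replicate 1 and 0.14 and 0.09 on replicates 2 and 3. Replicate 1 thus stood highest, and normotensive arrays ran from -0.15 to 0.15.

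Dimer partners and relatives of these factors showed no common direction, with 2 of 6 kept genes higher, 4 lower and 0 past the threshold. DDIT3, a C/EBP relative made under endoplasmic reticulum stress, read 670, 1026 and 462 on hypertensive replicates 1, 2 and 3, against 1238, 1106 and 800 on the normotensive arrays (log2 difference -0.59, SE 0.36, limma adjusted p = 0.392). CEBPG, a partner of CEBPB, had a log2 difference of -0.43 (SE 0.30), and ATF4 and CREM, both of the CREB family, had 0.26 each (SE 0.24 and 0.22). CREM was the 1 kept gene of the 6 without overlap, where 9.28% of all kept genes lay wholly above. The margin was narrow, with 2831, 2119 and 2607 on the hypertensive arrays against 2090, 2103 and 2092 on the normotensive ones. One of the 4 kept CREM probe sets had the opposite sign.

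Other phosphatases of MAP kinases did not separate the groups as DUSP1 did. DUSP6, which acts on ERK kinases, read 358, 157 and 367 on hypertensive replicates 1, 2 and 3, against 186, 136 and 171 on the normotensive arrays (log2 difference 0.75, SE 0.39, limma adjusted p = 0.345). Replicates 1 and 3 lay above the normotensive arrays and replicate 2 within them. DUSP14 and DUSP7 had log2 differences of 0.36 (SE 0.37) and 0.17 (SE 0.40), also with overlapping groups. Among the 3 kept genes all had higher means and 0 passed.

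Upstream kinases and their factors gave 3 higher and 7 lower means among 10 kept genes, with a median log2 difference of -0.35 and 0 past the threshold. The groups did not overlap in 1 that was higher and 1 that was lower, where 9.28% and 12.6% of all kept genes did so. MAP2K4, a kinase that activates JNK, was the higher one, at 1.51 times the normotensive level. Its margin was narrow, with a lowest hypertensive signal of 617 against a highest normotensive one of 602. MAP3K7, a kinase that relays interleukin-1 and TGF-beta signals, was the lower one, at 0.626 times. MAPK9, which encodes a JNK kinase, was at 0.617 times and the factor MEF2A at 0.675 times, with overlapping groups. Limma adjusted p for these 4 genes lay between 0.304 and 0.338.

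Textbook targets of AP-1, C/EBP and EGR1 held the largest log2 differences among these lists. Of 18 kept genes 14 had higher and 4 lower means, with a median log2 difference of 0.81 and 0 past the threshold. The groups did not overlap in 9 that were higher and 1 that was lower, where 9.28% and 12.6% of all kept genes did so. This list was written with earlier results known, in which several of its genes were already high, so its count is no independent evidence. The 4 smallest p-values were those of MMP3, CXCL8, ICAM1 and MMP1, a stromelysin, a chemokine, an adhesion molecule and a collagenase (limma adjusted p between 0.115 and 0.206). MMP3 read 14136, 797 and 3135 on hypertensive replicates 1, 2 and 3, against 46.9, 27.2 and 23.1 on the normotensive arrays. Every normotensive value lay under the filter level of 48.5, so MMP3 was kept only through its hypertensive signal and had to differ, and its place among the smallest p-values rests on that. CD14, with a higher mean but overlapping groups, was likewise kept through its hypertensive signal, with geometric means of 73.8 against 40.7. Relative to the normotensive mean, the median of the 18 genes was 1.03, 1.00 and 0.67 on hypertensive replicates 1, 2 and 3.

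FGF2, a fibroblast growth factor and the 1 target lower on every hypertensive array, was chosen after its values were seen. It read 90.0, 138 and 74.4 on hypertensive replicates 1, 2 and 3, against 239, 197 and 182 on the normotensive arrays (log2 difference -1.07, SE 0.33, limma adjusted p = 0.256). Genes of this list thus lay on both sides of their normotensive levels.

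**Figure D4:**
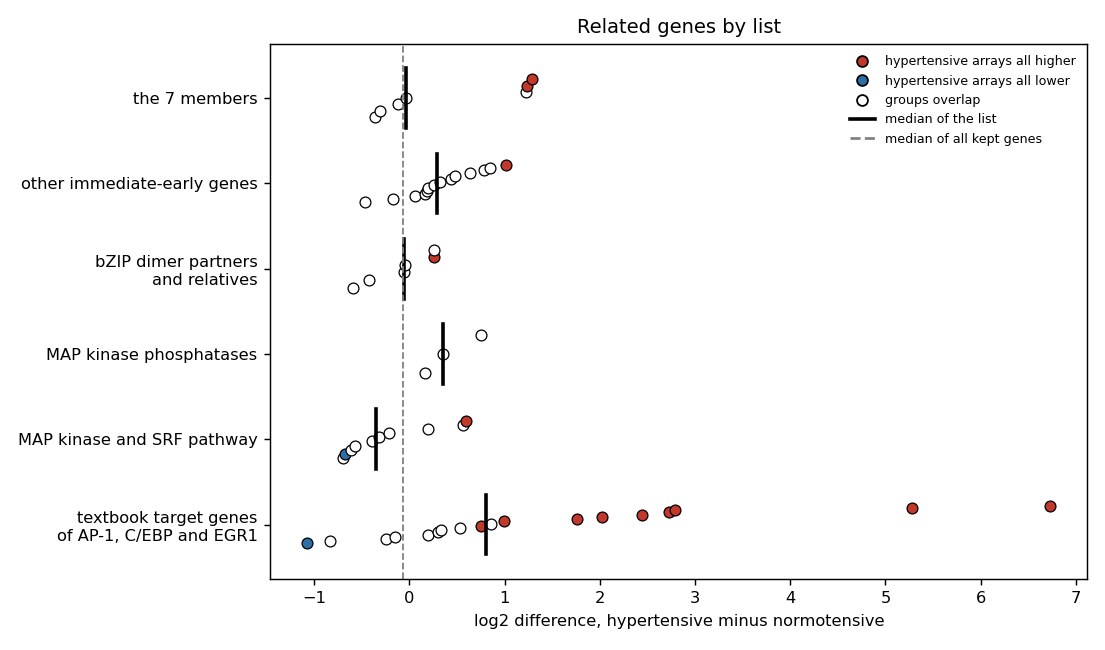
Log2 difference, hypertensive minus normotensive, of each kept gene in the 7 members and in 5 lists of related genes; filled points mark groups that did not overlap, thick bars the median of a list and the dashed line the median of all kept genes, -0.07. Targets have a median of 0.81, the MAP kinase and SRF pathway -0.35.

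Marker genes of the cells in the leaflet also differed in their means, and since these are bulk samples, fewer cells of a type and less RNA per cell cannot be told apart. All 7 measured markers of interstitial cells and fibroblasts had lower means at hypertensive pressure, with summed signals of 50960 to 64527 against 73899 to 74826 on the normotensive arrays. Sums here and below rest mostly on the brightest probe sets. By gene, 2 of the 7 lay wholly below the normotensive arrays, where 12.6% of all kept genes did, and the rest overlapped. Summed signals of 8 macrophage and leukocyte markers were 874 to 2871 against 1908 to 3529, with ITGAM and CD3E under the filter level on every array. Within that list, by the brightest probe set, CORO1A lay wholly above and PTPRC wholly below the normotensive arrays. PTPRC was kept through its normotensive signal, with geometric means of 31.0 on hypertensive and 77.6 on normotensive arrays. Its separation is thus no independent evidence. CORO1A had 2 kept probe sets, and the other had a group difference of opposite sign. Summed signals of 10 endothelial markers were 2050 to 3927 against 2493 to 3060. VWF, KDR, TIE1 and CLDN5 lay under the filter level on every array. Single endothelial markers lay on opposite sides. SELP, which encodes P-selectin, read 2296, 784 and 368 on hypertensive replicates 1, 2 and 3, against 95.4, 245 and 90.6 on the normotensive arrays. CDH5, whose mean was under the filter, read 68.4, 115 and 84.9 against 30.3, 12.3 and 40.5, while ERG lay wholly below the normotensive arrays, at 0.640 times. SELP, CDH5, CORO1A, ERG and PTPRC were singled out after their values were seen. The part of cell makeup in the differences of CEBPB, DUSP1 and ATF3 was not tested.

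The control genes overlapped between the groups. GAPDH had a log2 difference of 0.11 (SE 0.15) and ACTB one of 0.32 (SE 0.24), in both cases smaller than the differences of CEBPB and DUSP1. RNA integrity is often read from how much GAPDH control signal comes from the 3′ end relative to the 5′ end. On the array, 2 pairs of control probe sets give that ratio. By the first pair it was 3.67, 2.91 and 6.04 on the hypertensive arrays against 3.02, 2.11 and 7.52 on the normotensive arrays, and by the second 18.1, 23.7 and 29.8 against 23.3, 17.6 and 37.4. Replicate 3 was highest in both groups by either pair, while hypertensive replicates 1 and 2 changed order between the pairs. The part of this ratio in the low values of replicate 3 was not tested.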

How the data were processed

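Per the labels' protocols, 70 ng of total RNA from each of 6 leaflet samples was amplified, and 10 µg of the labelled cRNA went onto an Affymetrix Porcine Genome Array. The authors deposited 1 signal intensity per probe set and array, on a linear scale. GCOS and MAS5 are named in the submitters' processing notes, with versions not given in the sources used here. Trimmed by 2% at each end, the deposited intensities averaged 500.1 on every array. Each had thus been scaled to a common level, so a shift of most transcripts one way would not be seen.

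Gene symbols are those of the platform annotation. Control probe sets (124) were left out and log2 was taken with no pseudocount. Probe sets whose mean log2 signal reached the 40th percentile (a signal of 48.5) were kept: 14399 in all, among them 9 of the 11 of the members. Hypertensive and normotensive arrays were compared in limma 3.58.1 under R 4.3.3, by lmFit and 2-sided eBayes with an intensity trend. Benjamini-Hochberg adjustment ran over every kept probe set, at a threshold of 0.05. Intervals are 95% intervals of that fit, unadjusted. The fit was tested on simulated data with the same spread in both groups, which these arrays did not have.

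The brightest probe set stood for a gene. Named were all members, the 4 genes of smallest p of each list, the 3 nearest in pattern to each member, GAPDH and ACTB. FGF2, F3, CD14, 5 further marker genes and the further CREM and CORO1A probe sets were singled out after their values were seen. CD14 is on both the target list and the macrophage list. Members, lists and tests were chosen with earlier results of these data known. An exact permutation test of 3 against 3 cannot go below p = 0.1, so none was used. No detection calls were read, and precision is limited by the number of arrays.

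The numbers of probe sets and members called and the log2 difference of each kept member probe set were recomputed under 15 alternatives. These were a replicate block, arrays quantile normalized or shifted to a common median, and no filter or one at the 60th percentile. Further ones were 16 or 64 added before log2, no intensity trend, array weights, and each array left out in turn. The member overlap count was recomputed under the quantile and median scalings only. List counts, marker sums, spreads, likeness and folds by array were not recomputed.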

Additional observations from a re-analysis of the deposited data

How the results depend on the processing

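With 0 probe sets called over all arrays, 5639 were called with array weights, 3505 without hypertensive replicate 2 and 1 without normotensive replicate 2; in the 6 fits with an array left out the count ran from 0 to 3505. Of the 9 kept member probe sets, 4 were called with array weights, where 5639 of all 14399 were. Without hypertensive replicate 2 it was 2 of the 9, where 3505 of all 14399 were called (0 to 2 members over the 6 fits). Members were thus called about as often as kept probe sets in general. With array weights the called members were CEBPB (log2 difference 0.94), JUN (-1.21), the EGR1 probe set Ssc.19629.1.A1_at (-1.12) and CEBPD (-0.43), while DUSP1 was at 0.62 (adjusted p = 0.0924) and ATF3 at 0.0046. The weights were 0.289, 0.195 and 2.38 for hypertensive replicates 1, 2 and 3 and 6.96, 0.931 and 1.15 for normotensive ones, so that fit leans on hypertensive replicate 3 and normotensive replicate 1.

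With each array left out in turn, log2 differences ran from 0.96 to 1.48 for CEBPB, 0.87 to 1.53 for DUSP1, 0.24 to 1.87 for ATF3, -0.64 to 0.037 for FOS, -0.74 to 0.12 for JUN, -0.38 to 0.046 for EGR1, -0.75 to -0.15 for its further probe set and -0.41 to 0.19 for CEBPD. The values that changed sign were 0.037 for FOS without hypertensive replicate 1, 0.12 for JUN and 0.046 for EGR1 without hypertensive replicate 3, 0.10 and 0.19 for CEBPD without hypertensive replicates 1 and 3, 0.022 for CEBPD with a median shift, and -0.029 for the CEBPD probe set Ssc.10025.2.S1_at without hypertensive replicate 2, with a highest value of 0.34. The cause was not tested. Of 135 member values under the 15 alternatives, 122 kept their direction and their side of the threshold, 7 changed sign and 6 passed the threshold.

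With the replicate block, 0 probe sets and 0 members were called, with adjusted p = 0.150 for CEBPB, 0.139 for DUSP1 and 0.257 for ATF3. Deviations of same-numbered arrays correlated at 0.06, 0.07 and 0.23, and every array correlated best with its own number. The labels state no pairing, so the main fit took none. Whether same-numbered samples shared an animal or a batch was not tested. In an alternative added after seeing the data, the groups did not overlap in 2 of the 7 member genes, both higher, with quantile normalization and with the median shift too. The share over all kept genes was not computed under those scalings. With the deposited values 9.28% of them lay wholly above.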

Other observations

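A further EGR1 probe set and a further CEBPD probe set lay under the filter and were not tested. The EGR1 probe set Ssc.16460.1.S1_at read 20.0, 17.9 and 7.07 on hypertensive replicates 1, 2 and 3, against 6.19, 22.3 and 7.39 on the normotensive arrays. The CEBPD probe set Ssc.10025.1.S1_at read 111, 14.2 and 14.2 on the hypertensive arrays, against 31.8, 54.2 and 32.7 on the normotensive arrays. Its highest value, on replicate 1, went against the brightest CEBPD probe set, which was below the normotensive arrays there.

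F3, which encodes tissue factor, the starter of blood clotting and a known EGR1 target, also lay under the filter by its mean and was singled out after its values were seen. It read 644, 94.8 and 57.7 on hypertensive replicates 1, 2 and 3, against 10.5, 1.61 and 35.6 on the normotensive arrays. All normotensive values lay under the filter level of 48.5 and all hypertensive values above it.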
